A study of Mus musculus with 22 samples.

Results

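Isolated intronic H3K27ac regions are stretches of acetylated chromatin that lie inside a gene, away from every annotated start site and away from groups of other such stretches. They were examined in BcorΔE9-10 KL cells, which are lineage-negative, cKit-positive and Sca1-negative myeloid progenitors of the bone marrow. The members were chosen by the peak calls of 3 H3K27ac ChIP-seq libraries and by gene annotation. Overlapping peaks of chromosomes 1 to 19 were united, and a region was kept when at least 2 libraries had a peak in it, when it lay more than 2.5 kb from any annotated transcription start site (TSS), and when its midpoint fell in the body of a protein-coding gene but in no exon. Distal regions at most 12.5 kb apart were chained, and regions in chains of 3 or more were left out. This gave 1906 members among 34063 united regions, of which 19162 had a peak in at least 2 libraries and 5185 of those were distal. Members made up 36.8% of these distal regions and 58.4% of the 3261 distal intronic ones.

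The cells came from male C57BL/6 mice that carried scl-Cre-ERT and a floxed Bcor allele (Bcorfl/y). The mice received 1 mg of tamoxifen daily on 5 days, aged 3 to 6 months, and KL cells were sorted 20 weeks afterwards. The Cre recombinase was driven by a regulatory element of the stem cell gene Scl, so KL cells carried the deletion by descent from recombined stem cells, and removal of Bcor exons 9 and 10 left a truncated protein without the domain that binds the PRC1.1 complex. The 3 libraries came from 3 mice per the methods of the study and are called replicates 1, 2 and 3. BcorWT cells had no H3K27ac library in this data set as analysed here, so every value describes mutant cells and genotypes were not compared. The other 19 of the 22 listed samples were not analysed here.

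Acetylation of histone H3 at lysine 27 marks active promoters and enhancers. Enhancers are short sequences bound by transcription factors that raise transcription of a gene from a distance, and many lie in introns of the gene that they act on or of a neighbour. Long clusters of enhancers are known as super-enhancers and occur at genes of cell identity, whereas the regions described here stand alone or in pairs. In myeloid progenitors, known enhancers are bound by factors of the ETS, RUNX, GATA and C/EBP families.

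Depth was estimated from the peak lists at 18.04 M to 19.3 M reads per library, and the weakest called summits held 8, 8 and 9 fragments in replicates 1, 2 and 3. Weaker acetylation is therefore not represented. All 6 marker genes of progenitors (Kit, Gata2, Myb, Runx1, Spi1 and Cebpa) had a TSS-proximal peak in every library. Of 17 marker genes of lymphoid, mature myeloid, erythroid, stromal and liver cells, 0 had such a peak in at least 2 libraries. Their lists held 3, 6, 3 and 5 genes, the last for stroma and liver together, and 3 of the 17 genes had a peak in a single library. Longer lists of blood lineages, used below, did include acetylated start sites. These were found at 8 of 22 granulocyte and monocyte, 10 of 24 erythroid and megakaryocyte and 4 of 24 lymphoid genes. The shares are 36.4%, 41.7% and 16.7%, against 48% of all autosomal protein-coding genes. The 17 markers therefore do not stand for every gene of these lineages.

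The sequences at the strongest members are shown first, because they give the letters behind the values that follow. Each is the 300 bp window of GRCm38 centred on the strongest summit, read on the plus strand. The set holds the members with the highest and second highest mean fold enrichment, and the strongest member that holds each of 6 motif words of blood transcription factor families. Capitals mark these words on either strand. The GATA word was AGATAA. For ETS factors it was GGAAGT, whereas the RUNX word was TGTGGTT. The C/EBP word was TTGCNNAA and the AP-1 word TGANTCA, where N is any base. E-boxes were searched as the word CAGCTG and as the variant CAGATG. The windows are chr11:60935000-60935299 in Map2k3, chr10:81298307-81298606 in Pip5k1c, chr10:13983065-13983364 in Hivep2, chr4:143161780-143162079 in Prdm2 and chr9:15017826-15018125 in Panx1.
Map2k3: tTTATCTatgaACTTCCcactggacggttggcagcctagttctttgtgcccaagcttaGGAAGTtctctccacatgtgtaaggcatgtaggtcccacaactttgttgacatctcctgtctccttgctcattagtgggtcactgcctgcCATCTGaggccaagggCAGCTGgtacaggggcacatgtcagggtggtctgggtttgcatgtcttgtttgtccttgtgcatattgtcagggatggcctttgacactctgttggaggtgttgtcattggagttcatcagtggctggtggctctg
Pip5k1c: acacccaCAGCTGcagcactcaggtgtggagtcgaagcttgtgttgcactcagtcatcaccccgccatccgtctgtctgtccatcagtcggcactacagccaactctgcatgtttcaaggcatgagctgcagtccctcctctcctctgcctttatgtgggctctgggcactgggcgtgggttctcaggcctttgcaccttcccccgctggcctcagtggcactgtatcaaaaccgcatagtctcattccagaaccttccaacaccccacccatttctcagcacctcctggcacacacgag
Hivep2: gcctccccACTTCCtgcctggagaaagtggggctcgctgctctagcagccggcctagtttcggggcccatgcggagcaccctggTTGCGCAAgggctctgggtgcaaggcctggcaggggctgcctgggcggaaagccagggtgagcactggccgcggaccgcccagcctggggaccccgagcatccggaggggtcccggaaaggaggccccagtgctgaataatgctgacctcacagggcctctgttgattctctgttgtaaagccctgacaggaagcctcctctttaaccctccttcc
Prdm2: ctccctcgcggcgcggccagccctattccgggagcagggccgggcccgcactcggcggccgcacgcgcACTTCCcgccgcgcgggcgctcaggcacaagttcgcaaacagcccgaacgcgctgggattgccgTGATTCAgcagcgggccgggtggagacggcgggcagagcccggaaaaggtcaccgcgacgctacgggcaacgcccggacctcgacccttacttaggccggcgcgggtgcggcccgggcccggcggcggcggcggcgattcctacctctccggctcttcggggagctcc
Panx1: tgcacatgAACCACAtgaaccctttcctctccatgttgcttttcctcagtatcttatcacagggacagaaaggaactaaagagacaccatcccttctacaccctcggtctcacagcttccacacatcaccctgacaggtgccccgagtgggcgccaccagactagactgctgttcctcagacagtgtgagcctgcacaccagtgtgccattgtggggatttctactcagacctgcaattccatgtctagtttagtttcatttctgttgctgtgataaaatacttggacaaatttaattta
The Map2k3 window held 1 GATA, 2 ETS and 2 E-box words. The Hivep2 window held 1 C/EBP and 1 ETS word, and that of Prdm2, which encodes a zinc-finger protein with a methyltransferase-type domain, held 1 AP-1 and 1 ETS word. Panx1, which encodes a membrane channel, held the strongest member with a RUNX word. The Pip5k1c window held 1 E-box word at its left end. G and C made up 51% of the Map2k3 window and 57.3% of that of Pip5k1c. The other windows held 65% in Hivep2, 74.7% in Prdm2 and 47% in Panx1. A match is a description of the letters and not evidence of a bound factor.

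The 10 strongest members called in all 3 libraries had mean fold enrichments of 11.7 to 16.6. Fold enrichment is the authors' ratio of summit pileup to local background within a library, and it is given below for replicates 1, 2 and 3 in that order. The highest mean was in intron 1 of Map2k3 (chr11:60934830-60936190), which encodes a kinase that activates p38 MAP kinases, with fold enrichments of 18.8, 14.6 and 16.5 (mean 16.6 ± 2.11, SD, n = 3). Intron 1 of Pip5k1c (chr10:81296974-81300378), a kinase that makes a membrane phosphoinositide, had values of 14.7, 15.6 and 18.9. The member in intron 12 of Cyth1 (chr11:118145923-118146599), an exchange factor for ARF GTPases, had values of 15.5, 17.9 and 15.3. These 3 members lay within each other's spread, and their lowest value was 14.6, over 3 times each library's median over all members.

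Hivep2, a zinc-finger transcription factor gene, carried its strongest member in intron 1 (chr10:13982438-13983602), with fold enrichments of 14.5, 11.3 and 15.7. Arid1b, which encodes a subunit of the BAF chromatin remodelling complex, had values of 12.7, 14.6 and 13.8 in intron 4 (chr17:5189447-5190250), 77.3 kb from the closest annotated TSS. A member inside both Tmigd3 and Adora3, the adenosine A3 receptor gene, had values of 12.7, 11.9 and 13.95 (chr3:105894383-105895432). Tmigd3 had no acetylated TSS, unlike the 9 other genes named here for the strongest members.

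Zfhx3, which encodes a zinc-finger homeobox factor, had fold enrichments of 13.3, 9.26 and 15.6 in intron 10 (chr8:108886837-108887707). Prkce, the gene of protein kinase C epsilon, had 12.9, 9.12 and 14.95 in an intron of 185 kb (chr17:86300487-86301822). The predicted gene Gm3448 had 11.2, 11.4 and 14.3 (chr17:15023636-15024997), and Ptp4a3, a phosphatase gene, had 10.6, 9.26 and 15.3 (chr15:73731772-73733543). In these 4 members the library of replicate 3 was the highest. Of the 10 members, 7 lay in the first intron of the named gene, by its transcript with the longest coding sequence. The members in Map2k3, Pip5k1c and Ptp4a3 lay 2.76, 2.54 and 2.61 kb from a TSS, close to the limit of the rule.

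**Figure D1:**
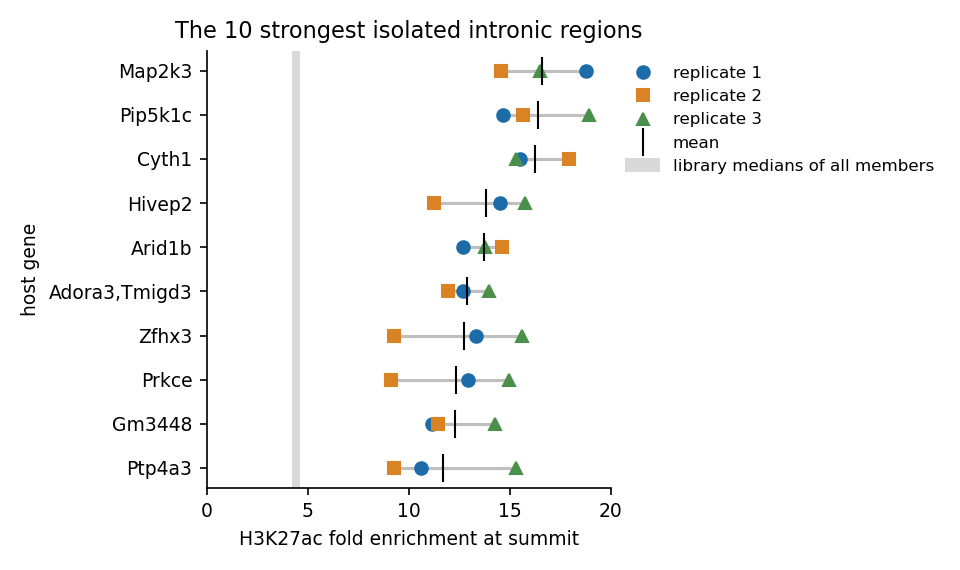
H3K27ac fold enrichment at the summit (linear axis) of the 10 isolated intronic regions with the highest mean, with 1 marker per library, a black tick for the mean and a grey line for the range. The grey band spans the library medians of all members, 4.26 to 4.56, and all 30 values of the 10 regions lie above it.

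Most members were weak. The median fold enrichment was 4.26 in replicate 1 (1431 members with a peak), 4.28 in replicate 2 (1601) and 4.56 in replicate 3 (1550), and the median summit held 13, 13 and 15 fragments. The middle 50% of members ran from 3.74 to 5.12, from 3.64 to 5.00 and from 3.93 to 5.53. A fold enrichment of at least 10 was reached by 24, 14 and 33 members. The median peak was 335, 345 and 332 bp wide, and 17.99% to 19.9% of peaks held more than 1 summit.

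All 3 libraries called 770 of the 1906 members (40.4%, 95% Wilson interval 38.2% to 42.6%), and the other 1136 were called in 2. Replicate 1, with the lowest depth estimate, was the missing library for 475 of these, replicate 2 for 305 and replicate 3 for 356. Members called in all 3 libraries were stronger, with medians of 4.63, 4.63 and 5.20 against 3.97, 3.97 and 4.23 for those called in 2. Among the 770 members the median coefficient of variation across libraries was 16.3%. Across members with a peak in both libraries, Spearman's rho of fold enrichment was 0.41 between replicates 1 and 2 (1126 members), 0.48 between 1 and 3 (1075) and 0.47 between 2 and 3 (1245). These are descriptions across regions of the same mice, and the members span a narrow range of values. The corresponding rho at TSS-proximal regions was 0.88 to 0.89.

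The share called in all 3 libraries rose with the number of fragments at the strongest summit, and a rise was built in. Summits with more fragments are more readily called. The strongest summit is also picked from more values when all 3 libraries called a region. The shares are therefore given to compare classes of regions within bins. It was 6.73% of 208 members with 8 to 11 fragments, 24.2% of 735 with 12 to 15, 46.5% of 525 with 16 to 19, 70.3% of 343 with 20 to 29 and 97.9% of 95 with 30 or more. The share was higher at the 1332 isolated intergenic regions (52.1%, 49.4% to 54.8%) and at the 1769 clustered distal regions (49.6%, 47.3% to 52.0%). Within the same bins of fragments, isolated intergenic regions had shares of 6.45%, 23.3%, 49.9%, 70.0% and 93.4%, whose intervals overlap those of the members in each bin. Clustered regions had shares of 7.34%, 30.1%, 51.9%, 72.3% and 92.4%, higher than the members in every bin but the last. Their intervals also overlap those of the members, at 12 to 15 fragments only narrowly (26.6% to 33.8% against 21.3% to 27.4%).

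Isolated intronic regions were slightly weaker than isolated intergenic regions in every library. The ratio of median fold enrichments was 0.942, 0.950 and 0.926 (mean 0.939 ± 0.012 as SD of 3 libraries). A two-sided exact permutation of signs over libraries gave p = 0.25, which is the smallest value that n = 3 allows. Against clustered distal regions the ratio was 0.987, 1.01 and 0.933 (mean 0.976 ± 0.038; same exact test, p = 0.5), so the libraries did not share a direction. Against the 1355 clustered regions that are also intronic, a comparison chosen after seeing the data, the mean ratio was 1.005. Members were narrower than clustered distal regions, with width ratios of 0.946, 0.958 and 0.883 (mean 0.929 ± 0.040; same exact test, p = 0.25).

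**Figure D2:**
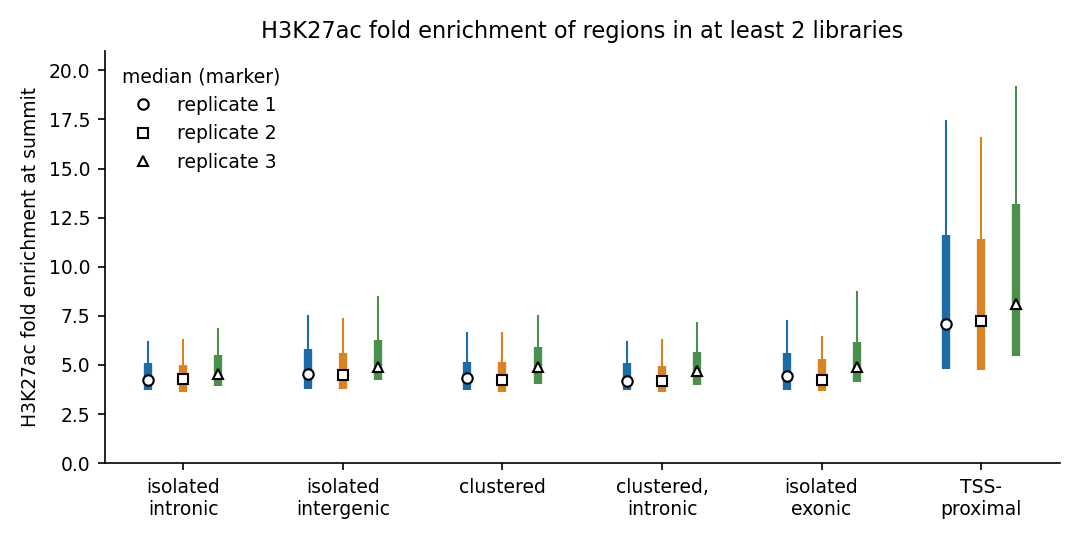
H3K27ac fold enrichment at the summit (linear axis) of regions with a peak in at least 2 libraries, by class and library. White markers are medians, thick bars the middle 50% of regions and thin lines reach to the 90th percentile. The members' medians of 4.26, 4.28 and 4.56 lie near those of the other distal classes and below the TSS-proximal medians of 7.10, 7.22 and 8.13.

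Members were densest close to start sites. Distal intronic sequence 2.5 to 5 kb from a TSS held 4.36 members per Mb (478 members), and the density was 3.51 at 5 to 10 kb, 3.00 at 10 to 20 kb, 1.80 at 20 to 50 kb and 0.637 beyond 50 kb (89 members). The same order held in each library. Fold enrichment did not follow this order, since the medians beyond 50 kb were 4.26, 4.30 and 4.56 against 4.34, 4.30 and 4.62 at 2.5 to 5 kb. Distal intronic sequence as a whole held 2.57 members per Mb and distal intergenic sequence 1.00 isolated region per Mb, with ratios of 2.504, 2.507 and 2.33 in the 3 libraries (mean 2.45 ± 0.099; exact sign-flip test, p = 0.25). Isolated intergenic regions also lay further from the closest protein-coding TSS, at a median of 22.3 kb against 11.8 kb for members. The part of this distance in the ratio was not tested.

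Members were denser per Mb in first introns than in later ones, although fewer of them lay there. By the transcript with the longest coding sequence of each gene, 735 members lay in a first intron only and 1028 in a later intron only. First introns offered 166 Mb of distal intronic sequence and later introns 519 Mb, which gives 4.43 and 1.98 members per Mb. The ratio of densities was 2.26, 2.22 and 2.26 in replicates 1, 2 and 3 (mean 2.25 ± 0.026; exact sign-flip test, two-sided, p = 0.25). First introns also lie closer to start sites, and the part of this distance in the ratio was not tested. Fold enrichment in first and later introns was alike in median, at 4.35 and 4.33.

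Host genes were mostly genes with an acetylated start site. The 1906 members lay in 1237 protein-coding genes, which is 5.95% of 20807 autosomal protein-coding genes. Of these hosts, 785 held 1 member, 311 held 2 and 141 held 3 or more, and 68 members lay in more than 1 gene. A region with a peak in at least 2 libraries within 2.5 kb of a TSS of the gene was found in 1076 hosts (87.0%, 85.0% to 88.7%), against 48% of all autosomal protein-coding genes. Among the 14640 genes that have distal intronic sequence but no member the share was 49.0%. In genes with an acetylated TSS the density was 5.36 members per Mb and in genes without one 0.458, with ratios of 12.1, 12.2 and 10.9 in the 3 libraries (mean 11.7 ± 0.726, SD, n = 3). Both measures come from the same libraries.

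The gap between these genes was present at each gene length. Among genes with 10 to 30 kb of distal intronic sequence, 9.34% of 2376 genes with an acetylated TSS and 2.33% of 1804 without one hosted a member. At 30 to 100 kb the shares were 24.2% of 1916 and 3.72% of 1479, and at 300 kb or more they were 48.7% of 115 and 5.06% of 336. The 194 members in hosts without an acetylated TSS were no weaker, with medians of 4.52, 4.30 and 4.63 against 4.20, 4.25 and 4.56. The closest protein-coding TSS belonged to a host gene for 1737 members (91.1%, 89.8% to 92.3%). For the other 169 it belonged to a neighbour, as at Cyth1, where the closest protein-coding TSS was that of Dnah17, a dynein heavy chain gene.

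**Figure D3:**
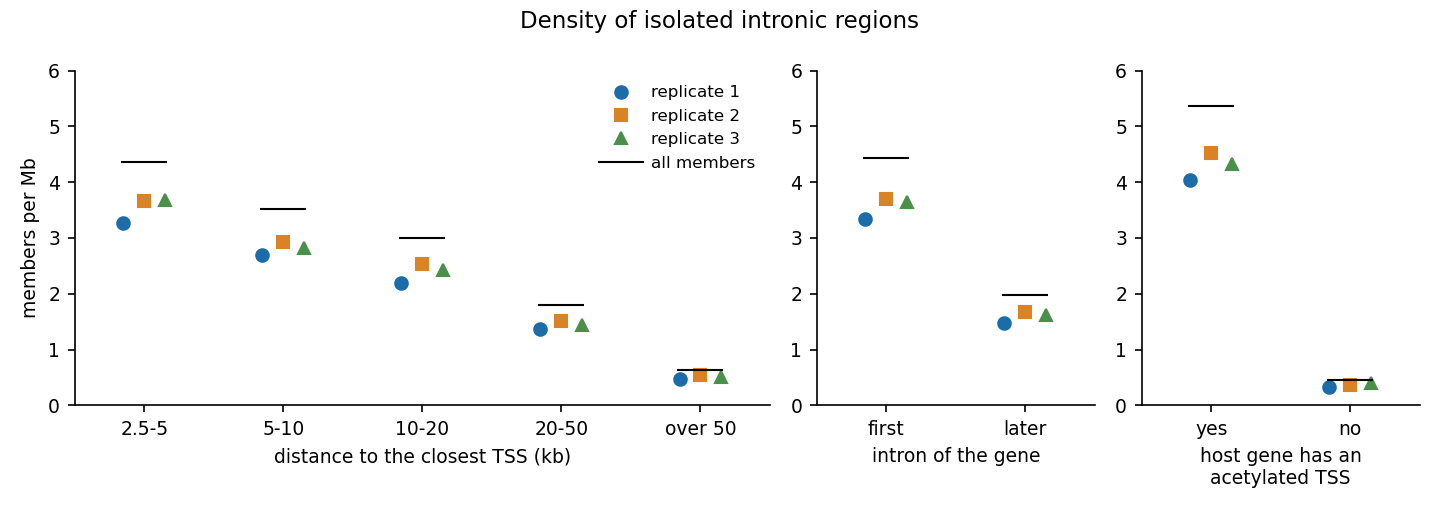
Isolated intronic regions per Mb of distal intronic sequence (linear axes from 0), by distance to the closest TSS in kb, by first or later intron, and by whether the host gene has an acetylated TSS. Markers are members with a peak in that library and black bars all members, which fall from 4.36 per Mb at 2.5 to 5 kb to 0.637 beyond 50 kb.

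The rule left members alone or in pairs of distal regions called in at least 2 libraries. No other such distal region lay within 12.5 kb of 1228 members, and 678 were in a pair. A region of any class called in at least 2 libraries lay within that distance of 1093 members (57.3%). When distal regions called in 1 library also formed chains, 1037 regions met the rule. The closest region with a peak in at least 2 libraries was TSS-proximal for 957 members, and the median gap to it was 9.35 kb. Members alone and in pairs had median mean fold enrichments of 4.33 and 4.35. Across chromosomes the density ran from 2.00 members per Mb on chromosome 6 to 4.47 on chromosome 11, with 3.64 on chromosome 17 next.

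A few long genes held many members. The gene model Gm20388 on chromosome 8 held 23, the most of any host. This predicted model is 4435 kb long and spans many other genes, 17 of its members also lie in another host such as Gse1 or Ankrd11, and 6 lie in no other host. Foxp1 (chr6:98925338-99522721), a forkhead repressor gene, held 13 members, with mean fold enrichments of 3.50 to 7.59 and 6 called in all 3 libraries. The predicted gene Gm20696 overlaps Foxp1 and held 10. Foxn3, another forkhead gene, held 11 members in 374 kb, with mean fold enrichments of 3.44 to 7.62, and Prkce held 9 with values of 3.43 to 12.3. The density in Foxn3 was 37.3 members per Mb of distal intronic sequence and that in Foxp1 25.4, against 2.57 over all such sequence.

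Genes of blood transcription factors hosted members often. Of 42 genes on this list, 15 held 46 members (35.7%, against 5.95% of all genes), at 11.8 members per Mb of their distal intronic sequence against 2.60 over all genes. An acetylated TSS was found at 38 of the 42, and the median mean fold enrichment of these members, 4.25, was close to the 4.33 of all members. The listed genes were long, with a median of 40.7 kb of distal intronic sequence against 7.28 kb over all genes. Of genes with an acetylated TSS and 30 to 100 kb of such sequence, 24.2% hosted a member. Genes with an acetylated TSS held 5.36 members per Mb at any length. The part of length and of acetylated start sites in the list's share was not tested. The list was chosen with earlier results of these data known, so its count is a description. The strongest member lay in Foxp1 (chr6:99489447-99489987, 5.17, 7.78 and 9.83), the next in Mef2c, a MADS-box factor gene (chr13:83609421-83610179, 5.18, 6.35 and 8.06). Runx2 followed with 5.52, 7.78 and 5.90 in its intron 7 (chr17:44613601-44615863). The member of Tcf4, an E-protein gene, was called in replicates 1 and 3 only, with 7.38 and 5.11. The libraries of Foxp1 and Mef2c ran in the same order, with replicate 1 lowest and replicate 3 highest, and that order did not hold in Runx2.

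Runx1, the core-binding factor gene that is needed for blood stem cells to form, held 6 members on chromosome 16. A pair in intron 6 had fold enrichments of 4.40, 5.09 and 5.43 (chr16:92620436-92621374) and of 3.71, 4.93 and 5.79 (chr16:92621902-92622297). The other 4 were each called in 2 libraries, with means of 3.70 to 4.52. Ikzf1, the lymphoid and myeloid zinc-finger factor Ikaros, held 4 members with means of 3.63 to 5.06, of which the strongest had 3.07, 6.72 and 5.39 in intron 1 (chr11:11690940-11691722). Runx2 also held 6 members and Tcf4 and Mef2c 3 each. Fli1 and Ikzf2 held 2, and Bcl11a, Cbfa2t3, Elf1, Erg, Etv6, Nfix and Runx3 1 each. The Erg member was called in all 3 libraries at 4.10, 3.97 and 5.20 (chr16:95401621-95402467).

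Chromatin and polycomb genes were the next list. Of 33 genes, 10 hosted 21 members (30.3%), at 9.88 per Mb, and 31 of the 33 had an acetylated TSS. The median gene of this list had 48.6 kb of distal intronic sequence. The share of 24.2% for genes of 30 to 100 kb with an acetylated TSS is therefore the closer background. Kdm2b encodes the subunit that recruits PRC1.1, the complex of Bcor, to unmethylated CpG islands, and its strongest member had fold enrichments of 5.80, 4.96 and 5.85 in intron 4 (chr5:122978807-122979374). In Dnmt3a, a DNA methyltransferase gene mutated in blood cancers, the 2 members had values of 5.12, 4.96 and 5.85 (chr12:3833543-3835238) and of 5.46, 4.96 and 4.67 (chr12:3855268-3856704). The second Kdm2b member was called in replicates 1 and 2 only, at 6.15 and 4.38 (chr5:122895021-122895724). The 2 Dnmt3a members had lower spread between libraries than this one. Hdac4 was called in replicates 2 and 3 at 4.30 and 4.88. Arid1b, named above, was the only gene of the list with a member over 10.

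Of 32 genes of cytokine receptors and signalling, 9 hosted 14 members (28.1%), at 10.9 per Mb. The median gene of this list had 32.5 kb of distal intronic sequence, and 28 of the 32 had an acetylated TSS. The closer background is again the 24.2% of genes of 30 to 100 kb with an acetylated TSS. For density it is the 5.36 members per Mb of genes with an acetylated TSS over all lengths. The part of length and of acetylated start sites in the list's values was not tested. Flt3, a receptor tyrosine kinase of early progenitors, held 4. The strongest lay in intron 19 with fold enrichments of 10.8, 5.80 and 7.47 (chr5:147341212-147341931), next to another in intron 20 with 6.15, 3.06 and 8.13 (chr5:147339875-147341113). Both values spread widely between libraries, and the closest protein-coding TSS to both was that of Urad and not of Flt3. The Tgfbr2 member (4.44 and 4.88 in replicates 1 and 3) and the strongest Cbl member (4.95 and 4.19 in replicates 1 and 2) were each called in 2 libraries.

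Of 27 genes of adhesion and the cytoskeleton, 7 hosted 18 members (25.9%) at 4.18 per Mb. The median gene of this list had 66.1 kb of distal intronic sequence, and 22 of the 27 had an acetylated TSS. The list's share and density lay near those of genes with an acetylated TSS, at 24.2% for 30 to 100 kb and 5.36 per Mb over all lengths. In Vav1, the exchange factor of blood cells, the strongest member lay in intron 1 with fold enrichments of 6.996, 3.44 and 9.52 (chr17:57290581-57291395), again with replicate 2 lowest. Prex1, Gna13 and Vav3 were each called in 2 libraries, with strongest means of 5.35, 4.71 and 4.53. First introns held 13 of the 18 members, against 38.6% of all members. They held 10 of 14 members of the cytokine list, 9 of 21 of the chromatin list and 7 of 46 of the transcription factor list.

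Of the lists of mature lineages, only that of erythroid and megakaryocyte genes held hosts. Of 24 erythroid and megakaryocyte genes, 3 hosted 5 members (12.5%, against 5.95% of all genes), at 7.34 per Mb against 2.60 over all genes. The strongest was in intron 6 of Vwf, which encodes the von Willebrand factor of platelets and vessels (chr6:125572768-125573398), with fold enrichments of 10.9, 9.92 and 9.75 (mean 10.2 ± 0.633, SD, n = 3). All 3 libraries were close together there, and Vwf had no acetylated TSS. Rap1b was called in replicates 1 and 2 at 3.95 and 5.00, and the strongest member of Epb41 in replicates 1 and 3 at 4.60 and 4.34. Of 22 granulocyte and monocyte genes 0 hosted a member, but together they offer only 0.102 Mb of distal intronic sequence. Of 24 lymphoid genes 0 hosted a member in 1.46 Mb. With 5.95% of all genes as hosts, lists of this length hold few hosts at the background share, so these counts of 0 are not read as a difference. Long genes of nerve and muscle were included for their length, and 3 of 20 hosted 4 members (15%) in 24.4 Mb, which is 0.164 per Mb. Among them were 1 in Magi2 (5.46 and 4.56 in replicates 1 and 3) and 1 in Dlg2 (5.29 and 3.58 in replicates 2 and 3). The median gene of this last list had 1055 kb of distal intronic sequence, and 2 of the 20 had an acetylated TSS. Of all 451 genes with 300 kb or more, 16.2% hosted a member, and 5.06% of those without an acetylated TSS.

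**Figure D4:**
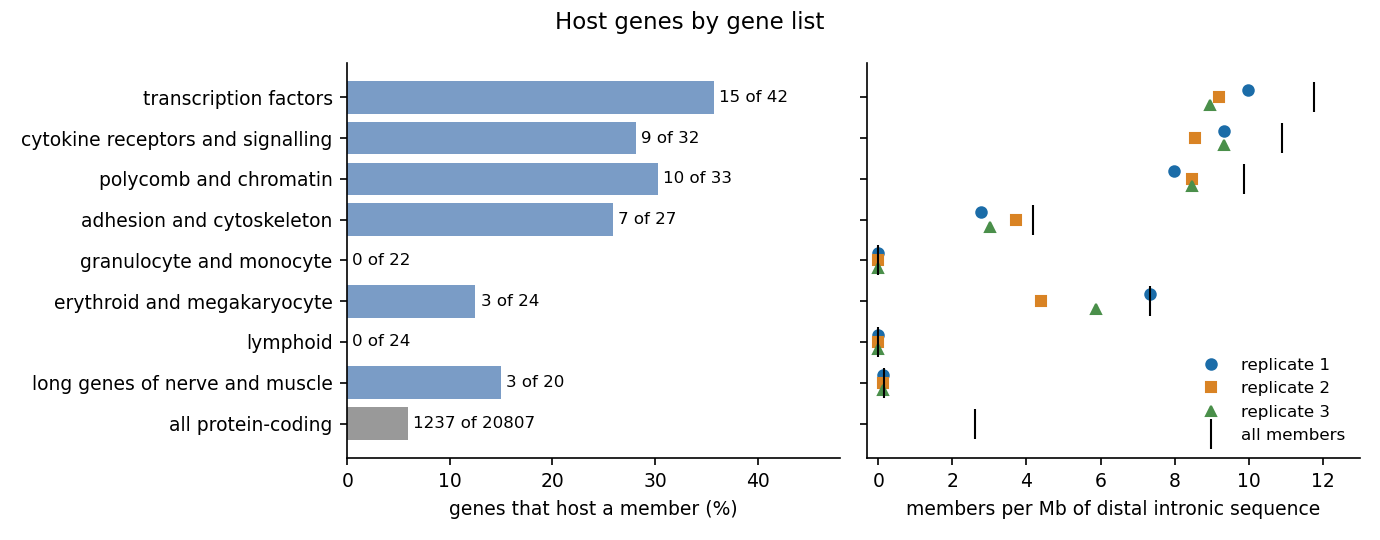
Share of the genes of each list that host an isolated intronic region (bars from 0, in percent, with counts) and members per Mb of the list's distal intronic sequence (linear axis, markers per library and black ticks for all members). Transcription factor genes reach 35.7% and 11.8 per Mb, all protein-coding genes 5.95% and 2.60 per Mb. The lists are not matched for gene length or for acetylated start sites.

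The rule did not use sequence, and the windows of members differed in composition from both promoters and their own surroundings. The median GC content of the 300 bp windows was 49.3%, against 46.0% in windows of the same length 1 kb to either side, 50.8% at isolated intergenic regions, 50.7% at clustered regions and 62.7% at TSS-proximal regions. It was 49.3% at the summits of each library taken alone. The observed to expected ratio of CpG was 0.261 in members, 0.363 at isolated intergenic and 0.751 at TSS-proximal regions. Windows with over 50% GC and a ratio over 0.6 numbered 32 (1.68%) among members, against 9.16% at isolated intergenic and 63.1% at TSS-proximal regions. Repeats marked in the RefSeq sequence covered 13.4% of the members' windows and 24.3% of the windows beside them.

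ETS words were the most raised of the 6 words shown above. GGAAGT lay in 461 of 1906 members' windows (24.2%, 22.3% to 26.2%), against 16.9% (15.7% to 18.1%) of the 3812 windows beside them, 26.4% of isolated intergenic, 21.9% of clustered and 17.8% of TSS-proximal windows. The ratio of members to the windows beside them was 1.58, 1.47 and 1.44 at the libraries' own summits. The longer word GAGGAAGT, the type bound by PU.1 and contained in the ETS counts, lay in 3.83% of members against 1.76%. E-box words lay in 38.7% against 33.8%, and words of RUNX (8.13% against 8.29%), C/EBP (11.8% against 11.9%) and AP-1 (9.18% against 8.97%) had overlapping intervals. GATA words were fewer at members, at 11.6% (10.2% to 13.1%) against 15.6% (14.5% to 16.8%).

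Other words were rarer or less different. The MYB word AACTGNC lay in 18.9% of members against 16.1% beside them, the IRF word GAAACNGAA in 2.94% against 1.94%, and the SP/KLF word GGGCGGG in 2.68% against 1.86%, where TSS-proximal windows had 24.1%. The CTCF word CCACNAGGG lay in 1.63% against 0.944% and the STAT word TTCCNGGAA in 1.05% against 0.839%. For the MYB, IRF, SP/KLF, CTCF and STAT words alike, the interval at members overlapped that of the windows beside them. Intervals were 95% Wilson intervals over windows and cover counting error only. Base composition differed between these windows as given above, and its part in the shares was not tested.

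The ETS words were fewer at the summit itself than beside it. In bins of 100 bp they numbered 0.756 and 0.792 per kb in the bins on either side of the summit and 1.37 per kb in the next bin on both sides, and they numbered 0.803 per kb or less beyond 400 bp. Zones were set after seeing this profile. At each library's own summits, ETS words numbered 1.18, 1.20 and 1.22 per kb at 100 to 400 bp from the summit, 0.835, 0.881 and 0.842 within 100 bp, and 0.640, 0.661 and 0.652 at 1000 to 1500 bp. The zone at 100 to 400 bp thus had 1.85 ± 0.030 times the outer level (mean and SD over libraries, n = 3), against 2.07 ± 0.092 at isolated intergenic and 1.59 ± 0.042 at clustered regions. The libraries share these sequences, so the SD does not measure sampling of sequence, and no test was made.

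C/EBP, RUNX, GATA and AP-1 words were also fewer within 100 bp of the summit than at 100 to 400 bp, and E-box words were more frequent there. C/EBP words numbered 1.34 ± 0.023 times the outer level at 100 to 400 bp and 1.02 ± 0.120 within 100 bp, and RUNX words 1.26 ± 0.019 and 0.947 ± 0.059. GATA words were at 0.982 ± 0.009 of the outer level at 100 to 400 bp and at 0.744 ± 0.147 within 100 bp. AP-1 words numbered 1.25 ± 0.033 times the outer level at 100 to 400 bp and 1.10 ± 0.054 within 100 bp. E-box words numbered 1.04 ± 0.018 and 1.16 ± 0.022 times the outer level in these zones. GC content rose towards the summit, from 45.8% at 1500 bp to 49.8% at the summit.

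**Figure D5:**
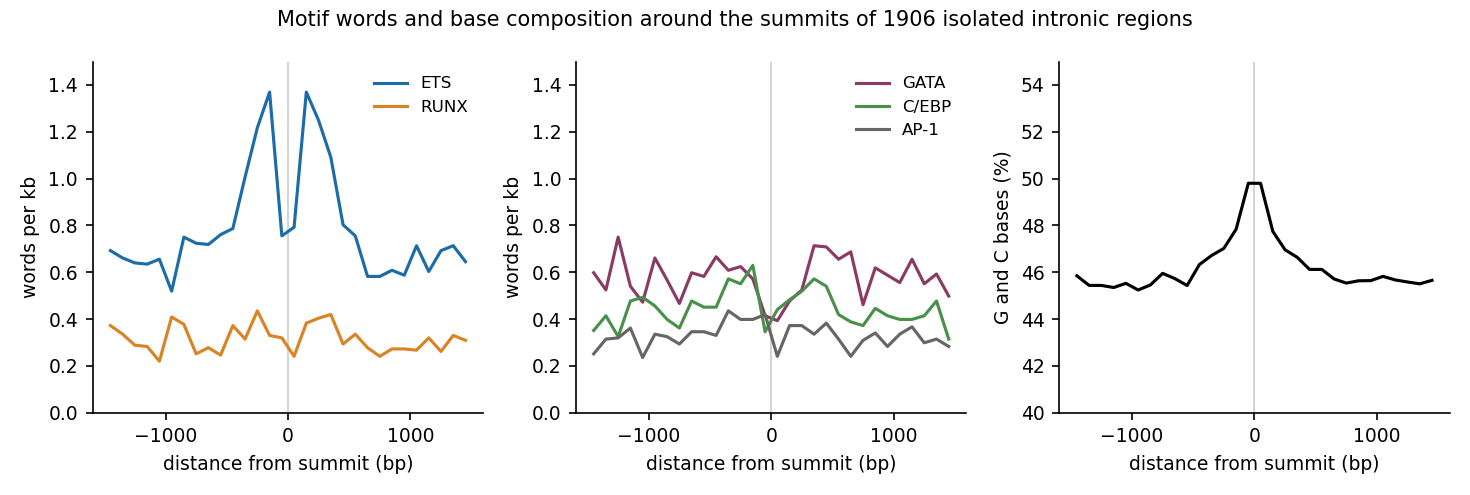
Motif words per kb in 100 bp bins (linear axes from 0) and percent of G and C bases (axis from 40 to 55) against the distance in bp from the strongest summit of the 1906 members, both strands counted. ETS words reach 1.37 per kb on either side of the summit and 0.756 and 0.792 in the 2 bins next to it.

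The limits of the rule cut through regions with like values. The members nearest to the TSS limit lay in Klhl18 (2502 bp, fold enrichments 4.66, 4.76 and 7.87) and Dnmbp (2503 bp, 6.61, 4.21 and 5.69), and those just outside it in Ankrd11 (2499 bp, 3.84 and 3.66 in replicates 1 and 3) and Slc2a1 (2497 bp, 5.96, 4.96 and 4.68). At the chain limit, a pair in Rcsd1 stood 12581 bp from the next distal region and had values of 5.13, 7.45 and 12.2 and of 5.26 and 5.04. A region in Ctif (4.78, 4.69 and 5.41) was left out because the gap that joined it to a longer chain was 12485 bp.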

How the data were processed

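KL cells from 3 BcorΔE9-10 mice were profiled by H3K27ac ChIP-seq. Per the labels and the study's methods, single-end reads were mapped by the authors with Bowtie2 to GRCm38, and MACS2 2.1.1 called peaks per library. The control and the caller's settings are not given in the sources used here. Each row of the deposited lists is a summit with a fold enrichment (a ratio to local background within the library), a −log10 p-value, a −log10 q-value and a score. The deposited score was left unused. Summits that share an interval made 1 peak, which took the highest fold enrichment among them, and overlaps of 1 bp united peaks. Fragments at a summit were solved from the deposited ratio and p-value (100% of rows within 0.001), and depth from the background with fragments of 200 bp. Genes were GENCODE M21 and sequence was RefSeq GRCm38, read with samtools 1.23.1. Start sites and exons of every annotated gene were used.

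Members, gene lists and words were chosen with earlier results of these data known. Named were the 10 strongest members called in all libraries, up to 4 hosts per list, the 5 hosts with most members, those at the rule's limits and the strongest member with each word. Other members of list genes were added after their values were seen. Some members that this rule names are not reported here. Shares carry 95% Wilson intervals, which cover counting error only. For ratios, an exact permutation of signs over the libraries gave a two-sided p, at best 0.25. Steps were tested on simulated data (Python 3.11.15, SciPy 1.17.1).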

Additional observations from a re-analysis of the deposited data

Results flagged for a closer look

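The rule covers chromosomes 1 to 19. Applied to the X chromosome, which no comparison above uses, it found 4 regions, a signal in data outside the main measurement. They lay in Msn (3.89 and 7.13 in replicates 1 and 3), in Elf4, an ETS factor gene, with 2 regions called in all 3 libraries (5.80, 3.97 and 6.50, and 4.10, 3.97 and 4.56), and in Atp7a (3.31 and 3.58 in replicates 2 and 3). Their density was 0.109 per Mb of distal intronic sequence, below the lowest autosome at 2.00. An acetylated TSS was found at 26.2% of 948 protein-coding genes of the X chromosome, against 48% on autosomes, and there were 1.25 such intronic regions per 100 TSS-proximal regions, against 13.6. The X chromosome held 319 TSS-proximal, 17 isolated intergenic and 23 clustered regions, against 13977, 1332 and 1769 on autosomes. The 4 intronic regions there were fewer than either other distal class, whereas the 1906 members on autosomes outnumbered both. The mice are male and carry 1 X chromosome. The part of copy number in these values was not tested.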

How the results depend on the processing

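No paired analysis was possible because the libraries analysed here form a single group. The number of members was 836 with −log10 q of at least 5, 1086 when a peak was required in all 3 libraries and 1037 when distal regions called in 1 library also formed chains, against 1906. It was 1320 to 1500 when a library was left out. The ratio of fold enrichment to clustered distal regions turned above 1 when a peak was required in all 3 libraries for every region (1.01), in regions called in all 3 (1.002) and against clustered intronic regions (1.005, an alternative added after seeing the data). The share called in all 3 libraries was 45.3% with −log10 q of at least 5. Hosts with an acetylated TSS were 83.1% with that threshold, 84.4% with chains of every distal region, 84.5% with a peak in all 3 libraries and 84.2% to 85.6% when a library was left out. The closest TSS was a host's for 89.3% with a TSS distance of 5 kb. Median GC was 50% in 200 bp and 48.5% in 500 bp windows, 49.7% in members called in all 3 libraries and 50.3% with −log10 q of at least 5.

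Shares of windows with a word moved with window length by construction. In 200 bp windows they were 7.61% for GATA, 13.9% for ETS, 1.89% for PU.1-type, 5.40% for RUNX, 7.14% for C/EBP, 6.14% for AP-1, 28.2% for E-box, 13.2% for MYB, 1.47% for IRF and 1.63% for SP/KLF. In 500 bp windows they were 20.6%, 41.8%, 8.60%, 15.6%, 20.8%, 16.3%, 54.7%, 31.0%, 5.56% and 4.56% in that order, with 1.73% for STAT and 2.47% for CTCF. With −log10 q of at least 5 they were 10.2% for C/EBP, 7.18% for AP-1, 3.83% for IRF, 3.71% for SP/KLF and 0.957% for CTCF. In members called in all 3 libraries they were 36.0% for E-box, 3.90% for IRF and 3.51% for SP/KLF, and at region midpoints 10.7% for AP-1. The cause of these changes was not tested.

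The other 140 values kept their direction and stayed within the limits set for them. The density ratio of first to later introns ran from 1.83 to 2.80, the fold enrichment ratio to intergenic regions from 0.916 to 0.942 and the width ratio from 0.912 to 0.990. Leaving out 1341 predicted gene models, also added later, removed 16 members and left 1216 hosts. Depth limits what can be seen: summits under 8 fragments were not called.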

Other observations

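Distal intronic regions called in a single library were not members. They numbered 6818, with 2211 in replicate 1, 2964 in replicate 2 and 1643 in replicate 3, and their median fold enrichments were 3.76, 3.64 and 3.93, with medians of 11, 11 and 13 fragments. The strongest of them reached 6.83, 7.81 and 7.99.

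Of the 6 word families shown, 3 or more lay in 111 members' windows (5.82%), against 5.86% at isolated intergenic and 4.24% at clustered regions. None of the 6 lay in 577 members' windows (30.3%). In the 191 members with the highest mean fold enrichment, ETS words lay in 27.2% of windows (21.4% to 33.9%), against 24.2% of all members. IRF and SP/KLF words each lay in 5.24% (2.87% to 9.37%), against 2.94% and 2.68%. Shares of RUNX, C/EBP and STAT words were also higher than in all members. Those of GATA (9.95% against 11.6%), AP-1 (7.85% against 9.18%), E-box (34.0% against 38.7%), MYB, PU.1-type and CTCF words were lower. Every word's interval overlapped that of all members. Median GC in these 191 members was 51.0%, and 17 of the 32 windows rich in CpG were among them.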
